A study of Mus musculus with 28 samples.

Results

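A set of 10 transcription factors of the lung epithelium was followed across 28 arrays of newborn mouse lung: Nkx2-1, Foxa1, Foxa2, Cebpa, Gata6, Sox9, Sox2, Id2, Foxp1 and Foxp2. They were chosen by name as regulators of lung epithelium, with earlier results of these data known. They are 10 of the 22180 genes measured. Each was read by 1 probe set, the only one carrying its symbol alone in the platform annotation, so no choice between probe sets entered their values. All 10 were measured in every array, and all 10 stayed in the data when the dimmest 40% of probe sets were left out.

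The study took whole lungs on the day of birth (postnatal day 0) from mice lacking the small GTPase genes HRas or NRas or both, and from controls, with 1 array per animal. Without treatment there were 3 Control, 3 HRas-KO, 3 NRas-KO and 5 double knockout (DKO) animals. With NAC (N-acetyl cysteine, a thiol antioxidant, 0.5%, given to the mothers during pregnancy) there were 4 Control+NAC and 4 DKO+NAC animals, and 3 each of HRas-KO+NAC and NRas-KO+NAC. The series title describes lethal respiratory distress in DKO newborns. Strain, sex, the alleles, litter and tissue specificity of the knockouts are not given in the sources used here. Values are log2 robust multi-array average (RMA) values, in which 1 unit is a doubling, and the differences below are on that log2 scale.

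The lung epithelium grows as a branching tree whose tips hold dividing progenitors and whose stalks become airways. NKX2-1 marks the respiratory lineage from its start and, with FOXA, GATA6 and C/EBP factors, binds the genes of surfactant proteins and airway secretions. SOX9 and ID2 mark the distal tips, SOX2 marks the proximal airways, and FOXP1 and FOXP2 are forkhead repressors of the distal epithelium. Ras proteins carry signals from fibroblast growth factor receptors, which drive branching.

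Promoter sequences are shown for 3 genes described below, to set the letters beside the values: Nkx2-1 and Id2, which changed with NAC in opposite directions, and Foxa1, whose own window holds a forkhead motif. Each is the 250 bases before the first transcribed base, read 5′ to 3′ on the gene's strand, from RefSeq on GRCm38.p6. All 3 lie on the minus strand, Nkx2-1 at chr12:56536909-56537158, Foxa1 at chr12:57546112-57546361 and Id2 at chr12:25096093-25096342. Capitals mark the motif found.
Nkx2-1: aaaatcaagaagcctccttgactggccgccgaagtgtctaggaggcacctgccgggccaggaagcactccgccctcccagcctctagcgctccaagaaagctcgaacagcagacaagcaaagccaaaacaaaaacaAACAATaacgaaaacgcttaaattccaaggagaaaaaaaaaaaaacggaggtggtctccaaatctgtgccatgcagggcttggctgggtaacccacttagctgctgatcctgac
Foxa1: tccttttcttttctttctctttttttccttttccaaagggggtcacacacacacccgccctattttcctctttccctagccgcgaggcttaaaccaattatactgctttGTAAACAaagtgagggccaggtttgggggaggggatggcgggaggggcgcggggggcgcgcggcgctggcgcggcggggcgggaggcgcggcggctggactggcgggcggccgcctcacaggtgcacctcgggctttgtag
Id2: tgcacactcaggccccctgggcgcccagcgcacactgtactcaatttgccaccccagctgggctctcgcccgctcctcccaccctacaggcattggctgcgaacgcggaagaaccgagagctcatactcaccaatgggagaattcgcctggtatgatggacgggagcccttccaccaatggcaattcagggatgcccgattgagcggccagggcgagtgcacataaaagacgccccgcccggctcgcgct
The motifs searched, on both strands, were forkhead (TGTTTAC, with TGTTTGC counted as its second form), NKX2-1 (CAAGTG), SOX (AACAAT), ETS (CCGGAA), the motif of GATA factors (which reads AGATAA) and C/EBP (TTGCNNAA). Capitals in the Nkx2-1 window are a SOX match 114 bases before the start site, and those in the Foxa1 window are a forkhead match on the opposite strand, 141 bases before it. The Id2 window held none of the 6. Over the 32851 mouse promoter windows of this length, the SOX letters occurred in 9.42%, the forkhead letters in 7.29%, NKX2-1 in 11.6%, GATA in 9.99%, ETS in 12.0% and C/EBP in 9.56%. Of the 10 genes, 7 had an entry in the promoter table, with 11 start sites, and 4 of those start sites had no match.

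Array medians lay between 5.25 and 5.41. Nras, the targeted gene that could be checked, read 8.07 to 8.47 in all Control and HRas-KO arrays of both arms and 7.40 to 7.80 in NRas-KO and DKO arrays, except for 1 library labelled DKO+NAC, replicate 4, at 8.08. Hras was not analysed here. The labels carry animal codes, whose starts may stand for litters, although their meaning is not stated. Over all genes, arrays of different groups that shared a code start deviated together more (mean r 0.15 over 28 pairs) than others (-0.035). Untreated and NAC arrays had no code start in common, and the 3 code starts of the DKO arrays belonged to no other group, so NAC and code start, and the DKO genotype and code start, cannot be told apart. All 3 HRas-KO+NAC arrays had the code start T453, so they may come from 1 litter. The lung was checked against its markers: the mean of 18 epithelial markers was 8.57 in Control and lay between 8.36 and 8.79 in the DKO and DKO+NAC arrays, while the group means of thyroid and thymus markers, 4.31 to 4.90, lay below the array medians. Group means of other tissues lay above them: liver 5.91 to 6.98, heart muscle 6.56 to 7.74 and skeletal muscle 5.42 to 6.20. The highest liver mean of 1 array was 7.94, in DKO replicate 5. How much other tissue the samples held was not tested. In whole lung, fewer cells of a type and less RNA per cell cannot be told apart.

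The 10 genes covered a wide range of levels in the lung. By mean probe-set value among all genes, Foxp1 stood at the 98.6th percentile, Id2 at the 97.1st, Nkx2-1 at the 96th, Gata6 at the 89.4th, Cebpa and Foxa1 at the 85.2nd, Foxa2 at the 79.5th, Foxp2 at the 78.8th, Sox9 at the 66.8th and Sox2 at the 50.1st. Probe sets differ in brightness, so these ranks place each probe set and do not order the transcripts. Animals of 1 group differed least in Gata6 (within-group SD 0.14) and most in Sox2 (0.38) and Foxp2 (0.35).

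**Figure D1:**
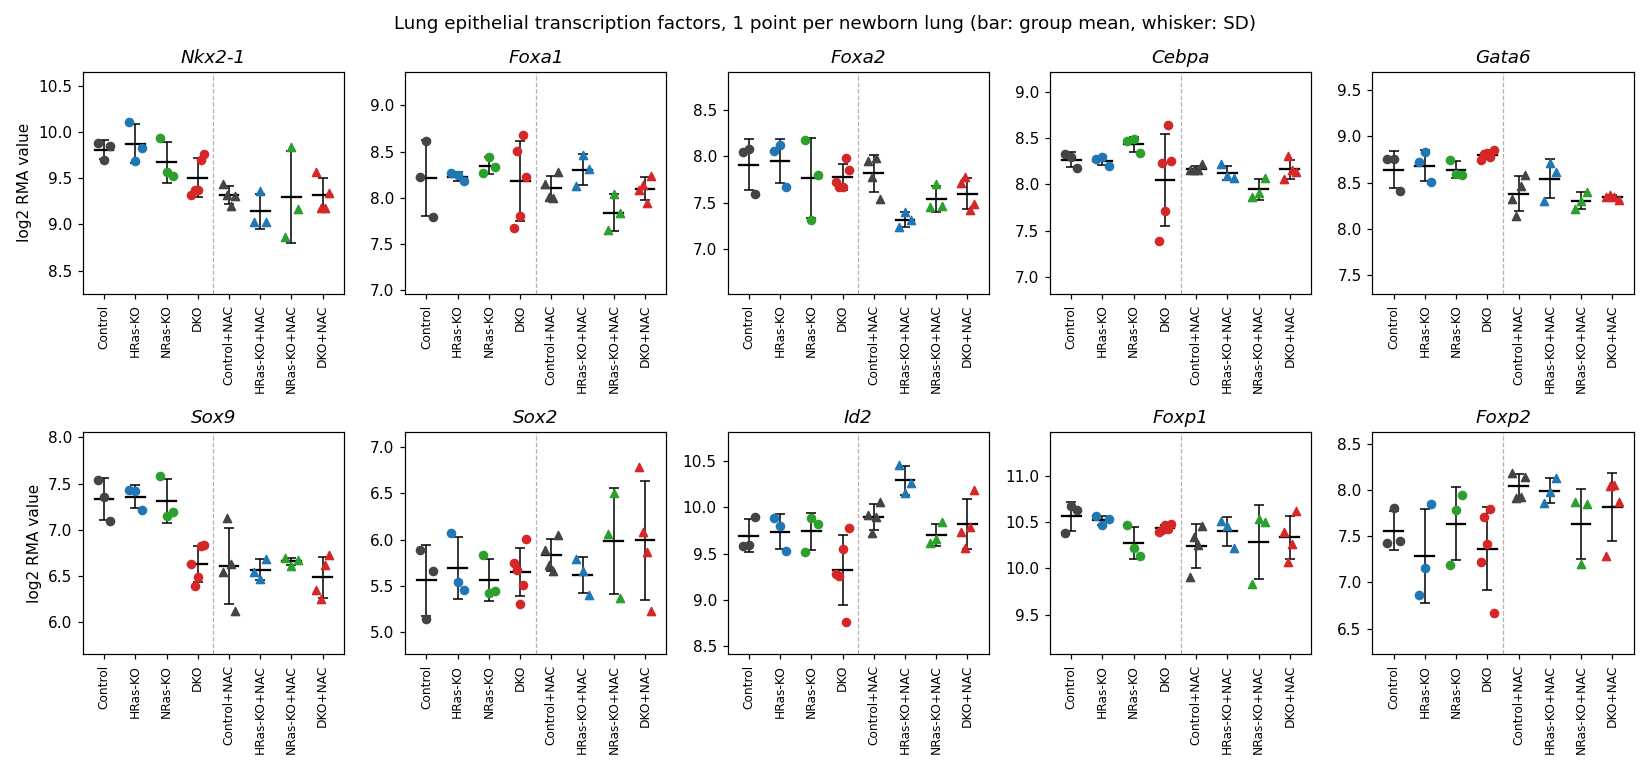
Log2 RMA value of each of the 10 genes (vertical axis, each panel spanning the same number of log2 units) in every array, by group (horizontal axis). Points are arrays, the bar is the group mean and the whisker its SD. Sox9 sits between 7.09 and 7.59 in the 9 untreated arrays that are not DKO and between 6.39 and 6.84 in the 5 DKO arrays.

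Sox9, the HMG-box factor of distal tip progenitors, was the one gene of the 10 that changed between untreated DKO lungs and each of the other untreated genotypes. Control arrays read 7.54, 7.36 and 7.09. HRas-KO arrays read 7.44, 7.42 and 7.21, and NRas-KO arrays read 7.59, 7.15 and 7.20. The 5 DKO arrays read 6.63, 6.39, 6.50, 6.82 and 6.84. All DKO arrays lay below all 9 arrays of the other untreated genotypes, without overlap. Groups likewise did not overlap for 10.2% of all genes in DKO against Control, 12.8% against HRas-KO and 11.6% against NRas-KO. The DKO mean was 6.63 ± 0.20 (SD, n = 5). The Control mean was 7.33 ± 0.22 (n = 3), the HRas-KO mean 7.36 ± 0.13 (n = 3) and the NRas-KO mean 7.31 ± 0.24 (n = 3). The DKO difference was -0.70 ± 0.16 (SE) from Control, a ratio of 0.617 with a 95% interval of -1.03 to -0.37 on the log2 scale (limma, adjusted p = 0.013). It was -0.72 ± 0.16 from HRas-KO (adjusted p = 0.0074) and -0.68 ± 0.16 from NRas-KO (adjusted p = 0.012).

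The 3 DKO comparisons share the DKO arrays and are not independent of each other. The call against Control missed the threshold without Control replicate 1 (-0.59, adjusted p = 0.11), without Control replicate 2 (-0.68, adjusted p = 0.064), without DKO replicates 1 and 3 (-0.65, adjusted p = 0.05) and with only Control and DKO arrays in the fit (adjusted p = 0.059). The call against NRas-KO missed it when NRas-KO replicate 1 was left out (-0.54, adjusted p = 0.1) or DKO replicates 1 and 3 were (-0.63, adjusted p = 0.051), and the call against HRas-KO missed it with muscle marker means in the fit (-0.83, adjusted p = 0.17). The 3 DKO animals of the code start G185 averaged 6.50 and the other 2 averaged 6.83, all below the untreated arrays of other genotypes.

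Loss of HRas or NRas alone gave no call for Sox9. The HRas-KO difference from Control was 0.03 (95% interval -0.34 to 0.39) and the NRas-KO difference was -0.02 (-0.39 to 0.35), with an adjusted p of 1 for both. The departure of DKO from the sum of the single knockouts was -0.70 ± 0.24, with an unadjusted p of 0.007 that did not pass over all genes (adjusted p = 0.25).

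With antenatal NAC, Sox9 read low in every genotype, with group means from 6.49 to 6.66, and it fell in Control, HRas-KO and NRas-KO lungs. Control+NAC arrays read 6.54, 7.13, 6.63 and 6.13. HRas-KO+NAC arrays read 6.55, 6.47 and 6.69, and NRas-KO+NAC arrays read 6.69, 6.61 and 6.67. DKO+NAC arrays read 6.35, 6.25, 6.62 and 6.73. Of the 19 arrays that were DKO or NAC, 18 lay below 7.09, the lowest of the other 9, and Control+NAC replicate 2 was the exception. Sox9 fell by 0.72 with NAC in Control lungs (SE 0.17, adjusted p = 0.0047), where the groups overlapped. It fell by 0.79 in HRas-KO lungs (SE 0.18, adjusted p = 0.0047) and by 0.65 in NRas-KO lungs (SE 0.18, adjusted p = 0.027), in both without overlap. Groups likewise did not overlap for 33.7% of all genes in HRas-KO and 23.6% in NRas-KO lungs.

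In DKO lungs, which were already low in Sox9, the NAC difference was -0.15 ± 0.15 (95% interval -0.45 to 0.16, adjusted p = 0.59). The change of the DKO effect by NAC was 0.58 ± 0.22 (unadjusted p 0.016, adjusted p = 0.25), so a difference between genotypes in the NAC response was not shown. Among NAC-treated lungs, the Sox9 difference from Control+NAC was -0.12 in DKO+NAC (adjusted p = 0.84), -0.04 in HRas-KO+NAC (adjusted p = 1) and 0.05 in NRas-KO+NAC (adjusted p = 0.94). The NAC call in NRas-KO lungs missed the threshold when NRas-KO replicate 1 was left out (-0.52, adjusted p = 0.16), and also without any 1 of the 3 NRas-KO+NAC arrays, while the Control and HRas-KO calls held without each of their own arrays.

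Sox9 is also a cartilage factor, and cartilage of the airways can enter a lung sample. The mean of 12 cartilage markers was 5.51 in Control, 5.55 in DKO and between 5.60 and 5.66 in the NAC groups. In DKO against Control limma called 0 of these 12, with 0 at an unadjusted p under 0.05. With NAC, Cnmd was higher by 0.42 and Col2a1 lower, at -0.29, in Control lungs, and Hapln1 was higher by 1.13 in HRas-KO lungs. By mean over all arrays 6 of the 12, among them Acan (4.15) and Matn1 (4.26), read below the array medians, and the other 6 read above them: Hapln1 (7.65), Col9a2 (7.57), Sox5 (7.30), Sox6 (6.46), Col2a1 (6.30) and Col11a2 (5.47). With the cartilage mean in the fit, the Sox9 difference between DKO and Control was -0.70 (adjusted p = 0.014), and with the epithelial mean it was -0.72 (adjusted p = 0.012). Other marker lists moved with the DKO genotype. The mean of 10 endothelial markers was 9.87 in Control and 9.69 in DKO, without overlap, with 2 of 10 lower, 1 higher and 5 at an unadjusted p under 0.05. The mean of 5 erythroid markers was 5.88 in Control and 6.43 in DKO, with overlap and 1 of 5 higher. Heart muscle markers averaged 7.25 in Control and 6.99 in DKO, without overlap, and limma called 0 of 10, with 3 at an unadjusted p under 0.05. Over levels in 28 arrays, Sox9 had an r of 0.649 with endothelial, 0.62 with smooth muscle, 0.575 with mesenchyme and 0.537 with heart muscle markers. Over deviations from group means these were 0.0824, 0.336, 0.067 and -0.21. The largest r of Sox9 over such deviations were 0.453 with liver and 0.436 with erythroid markers, where r over levels was 0.216 and -0.12. The part of liver and erythroid cells in the Sox9 differences was not tested.

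Several lists were lower with NAC as well. Mesenchyme markers, which the cells around the tips express, averaged 9.26 to 9.76 in untreated and 9.04 to 9.37 in NAC arrays. Smooth muscle markers averaged 7.92 in Control and 7.40 in Control+NAC, and 8.13 in HRas-KO and 7.54 in HRas-KO+NAC, in both without overlap, with 2 of 8 lower in each. In Control lungs with NAC, heart muscle markers went from 7.25 to 6.82 (3 of 10 lower) and endothelial markers from 9.87 to 9.65 (2 of 10 lower). The part of these lists in the Sox9 differences was not tested, apart from the fits with heart and skeletal muscle means given here.

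**Figure D2:**
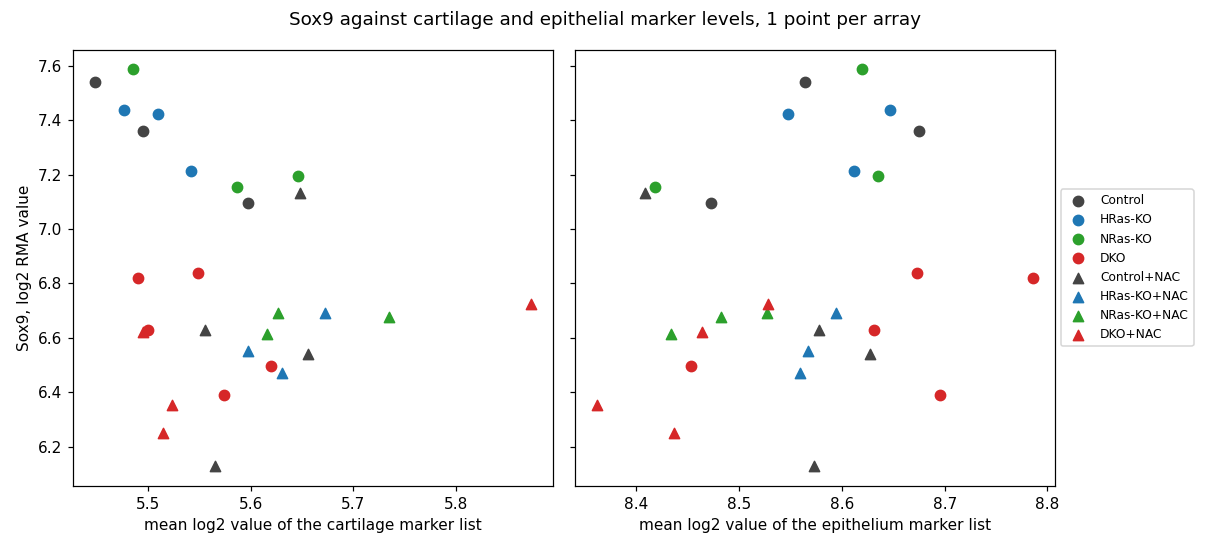
Sox9 log2 RMA value of each array (vertical axes) against the mean log2 value of cartilage markers and of epithelial markers (horizontal axes), coloured by group, 28 arrays. Over deviations from group means, r was 0.0576 with cartilage and 0.128 with epithelium.

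Sox2, the proximal airway counterpart of Sox9, passed no test. Control arrays read 5.89, 5.14 and 5.66, and the 5 DKO arrays had a lowest value of 5.30 and a median of 5.67. DKO+NAC arrays spread from 5.23 to 6.78, the widest group for this gene, with means of 5.65 ± 0.26 (n = 5) in DKO and 5.99 ± 0.64 (n = 4) in DKO+NAC. All 8 group ranges of Sox2 overlapped their neighbours in the order of means.

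Nkx2-1, the homeodomain factor of respiratory identity, fell with NAC in Control and HRas-KO lungs. Control arrays read 9.88, 9.69 and 9.85, and Control+NAC arrays read 9.44, 9.32, 9.20 and 9.31. HRas-KO arrays read 10.10, 9.68 and 9.83, and HRas-KO+NAC arrays read 9.03, 9.36 and 9.03. In both genotypes every NAC array lay below every untreated array, and groups did not overlap in either direction for 25.5% of all genes in Control and 33.7% in HRas-KO lungs. The difference was -0.49 ± 0.17 in Control (adjusted p = 0.049) and -0.73 ± 0.18 in HRas-KO (adjusted p = 0.0078).

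The Control result sat at the threshold and was lost without any 1 of the 7 arrays (adjusted p from 0.058 to 0.16) and under 6 of 12 alternatives (0.053 to 0.23). In HRas-KO lungs the call was lost when HRas-KO replicate 1 was left out (-0.62, adjusted p = 0.053) or muscle marker means entered the fit (-0.53, adjusted p = 0.13). In NRas-KO lungs the difference was -0.38 (adjusted p = 0.23), with NRas-KO+NAC arrays at 8.87, 9.84 and 9.17. Untreated DKO arrays read 9.32, 9.37, 9.37, 9.70 and 9.76, a difference of -0.30 ± 0.16 from Control (adjusted p = 0.37), and DKO+NAC arrays read 9.56, 9.17, 9.18 and 9.34. Over all genotypes, the untreated arrays averaged 9.69 (n = 14) and the NAC arrays 9.27 (n = 14).

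Foxa2, a forkhead pioneer factor that opens endodermal genes, fell with NAC in HRas-KO lungs. HRas-KO arrays read 8.06, 8.12 and 7.67, and HRas-KO+NAC arrays read 7.23, 7.40 and 7.31, without overlap, as for 33.7% of all genes. The difference was -0.64 ± 0.17 (adjusted p = 0.015), and it missed the threshold without HRas-KO replicate 1 (adjusted p = 0.065), HRas-KO replicate 2 (0.083) or HRas-KO+NAC replicate 1 (0.068). It also ended with muscle marker means in the fit (-0.53, adjusted p = 0.085) and with the cartilage mean (-0.52, adjusted p = 0.062). Group means of the other genotypes lay between 7.76 and 7.91 untreated and between 7.54 and 7.81 with NAC, and no other Foxa2 difference was called.

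Foxa1, its close paralog, was called in no comparison. Its largest NAC estimate was -0.51 in NRas-KO lungs (adjusted p = 0.13), where arrays read 8.27, 8.44 and 8.33 untreated and 7.65, 8.04 and 7.84 with NAC, without overlap. Groups did not overlap there for 23.6% of all genes. With muscle marker means in the fit this Foxa1 difference passed the threshold (adjusted p = 0.045). DKO arrays of Foxa1 spread widely, at 7.68, 8.51, 7.80, 8.68 and 8.23.

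Gata6, the zinc finger factor of distal epithelial differentiation that is also made in mesenchyme, fell with NAC in DKO lungs. The 5 DKO arrays read 8.74, 8.81, 8.82, 8.78 and 8.85, and the 4 DKO+NAC arrays read 8.34, 8.37, 8.35 and 8.31. The groups did not overlap, as for 10.3% of all genes, and they had the 2 smallest SDs of the Gata6 groups (0.04 and 0.02). The difference was -0.46 ± 0.10 (adjusted p = 0.0024), and it was called without each of the 9 arrays in turn. With the epithelial marker mean in the fit it was -0.38 (adjusted p = 0.054), and that mean was 8.65 in DKO and 8.45 in DKO+NAC.

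In Control lungs the Gata6 means were 8.64 ± 0.20 (n = 3) untreated and 8.38 ± 0.19 (n = 4) with NAC, a difference of -0.26 (adjusted p = 0.12). In NRas-KO lungs the difference was -0.34 (adjusted p = 0.09), without overlap, as for 23.6% of all genes. Over all genotypes untreated arrays averaged 8.71 (n = 14) and NAC arrays 8.39 (n = 14).

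Cebpa, the leucine zipper factor of alveolar type 2 maturation, was called in no comparison, and its DKO arrays were spread more than any other group. They read 7.39, 8.23, 7.71, 8.65 and 8.26, against 8.33, 8.30 and 8.18 in Control. The DKO mean was 8.05 ± 0.50 (n = 5) and the Control mean 8.27 ± 0.08 (n = 3). DKO replicates 1 and 3 held the 2 lowest Cebpa values of all 28 arrays, and their Foxa1 values, 7.68 and 7.80, were low as well. The same 2 arrays had skeletal muscle marker means of 7.09 and 6.16, against 5.61 to 6.38 in Control, while DKO replicate 5, at 6.60, had a Cebpa value of 8.26. The part of that tissue in these values was not tested. With NAC, Cebpa in NRas-KO lungs differed by -0.48 (adjusted p = 0.11), from 8.46, 8.49 and 8.34 untreated to 7.86, 7.91 and 8.07. With muscle marker means in the fit this difference passed the threshold (adjusted p = 0.022).

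**Figure D3:**
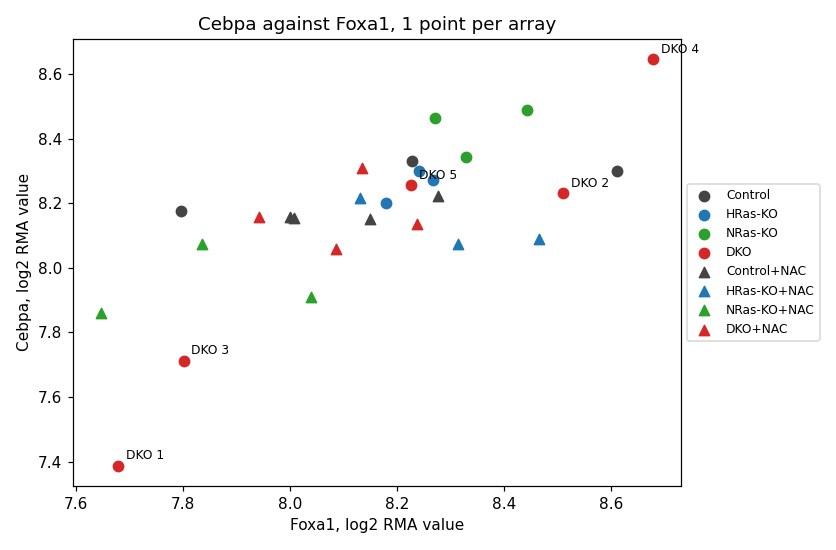
Cebpa (vertical axis) against Foxa1 (horizontal axis), log2 RMA values, 1 point per array, with circles for untreated and triangles for NAC arrays. DKO replicate 1 lies lowest on Cebpa at 7.39 and DKO replicate 4 highest at 8.65, so the DKO arrays span the whole Cebpa range of the 28.

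Id2, a helix-loop-helix protein without a DNA-binding region that blocks other such factors and marks distal tips, rose with NAC in HRas-KO and DKO lungs. HRas-KO arrays read 9.89, 9.80 and 9.53, and HRas-KO+NAC arrays read 10.46, 10.15 and 10.27, without overlap, as for 33.7% of all genes. DKO arrays read 9.29, 9.26, 9.55, 8.77 and 9.78, and DKO+NAC arrays read 9.74, 9.56, 9.78 and 10.19, with overlap. The difference was 0.56 ± 0.18 in HRas-KO (adjusted p = 0.046) and 0.49 ± 0.15 in DKO (adjusted p = 0.03).

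The call in HRas-KO lungs was lost without any 1 of its 6 arrays (adjusted p from 0.053 to 0.19), and under 6 of 12 alternatives, with the adjusted p at 0.051 to 0.18 and the smallest estimate, 0.38, with the cartilage mean in the fit. The DKO result was lost without DKO replicate 1 (adjusted p = 0.059), 2 (0.056) or 4 (0.096), or DKO+NAC replicate 3 (0.057) or 4 (0.13), and also with only the compared arrays (0.15) or the epithelial mean in the fit (0.26). DKO+NAC replicate 4, the highest of its group for Id2 (10.19), is the library whose Nras read 8.08, at the Control level. Id2 in untreated DKO lungs differed by -0.36 from Control (adjusted p = 0.26), with DKO replicate 4 lowest at 8.77. The Id2 and Sox9 estimates with NAC, both tip genes, had opposite signs in HRas-KO lungs.

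Foxp1 and Foxp2, forkhead repressors that act together in the distal epithelium and of which Foxp1 is also made in many other lung cells, were called in no comparison. Foxp1 means lay between 10.24 and 10.56, with NRas-KO+NAC the most spread at 10.29 ± 0.40 (n = 3). Foxp2 arrays read 7.43, 7.80 and 7.45 in Control and 8.18, 7.92, 7.93 and 8.14 in Control+NAC, without overlap, as for 25.5% of all genes. The difference was 0.48 (adjusted p = 0.21, and 0.029 with only these 2 groups in the fit). In HRas-KO lungs the Foxp2 arrays read 6.86, 7.16 and 7.85 untreated and 7.86, 7.98 and 8.13 with NAC. That was a difference of 0.70 (adjusted p = 0.083, and 0.034 with the replicate number as a block). Foxp2 had the strongest marker correlation of the 10 genes, at -0.685 with smooth muscle over deviations from group means and -0.788 over levels, and those markers were lower with NAC in both genotypes. With skeletal and heart muscle means in the fit the Foxp2 differences were 0.11 in Control (adjusted p = 0.84) and 0.34 in HRas-KO (adjusted p = 0.54). The part of smooth muscle in them was not tested. The untreated HRas-KO arrays were the most spread of the Foxp2 groups (SD 0.51).

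In DKO against Control, 1 of 10 was lower (Sox9) and 0 higher, where 1.35% of all genes were lower and 2.48% higher. Against HRas-KO, 1 of 10 was lower and 0 higher, beside 2.32% and 3.3% of all genes, a total of 1248 that was 56 with muscle marker means in the fit. Against NRas-KO, 1 of 10 was lower and 0 higher, beside 1.75% and 3.2%. Another quantile normalization changed the split of all genes from 550 higher and 300 lower to 458 and 383 against Control, and from 710 and 388 to 555 and 474 against NRas-KO. The median over the 10 genes was -0.16 in DKO against Control, and the median over all genes was 0.02. For HRas-KO against Control and NRas-KO against Control, limma called 0 of 10 and 0% of all genes. At an unadjusted p under 0.05 these comparisons held 0 of the 10 genes, with 190 and 231 of all genes. In the test of departure from additivity 0 of 10 were called, beside 0.225% of all genes, and 1 of 10 had an unadjusted p under 0.05.

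With NAC, 2 of 10 were lower in Control lungs (Sox9 and Nkx2-1) and 0 higher, beside 5.68% of all genes lower and 7.86% higher. In HRas-KO lungs 3 were lower (Sox9, Nkx2-1 and Foxa2) and 1 higher (Id2), beside 5.1% and 6.73%. The 3 HRas-KO+NAC arrays of that comparison all had 1 code start. In NRas-KO lungs 1 was lower (Sox9) and 0 higher, beside 3.56% and 2.86%. In DKO lungs 1 was lower (Gata6) and 1 higher (Id2), beside 6.46% and 5.74%. With arrays centred on their medians the DKO split of all genes moved from 1273 higher and 1433 lower to 909 and 1656. Among NAC-treated lungs, limma gave for each knockout group against Control+NAC 0 of 10 called and 0% of all genes, and the members with an unadjusted p under 0.05 numbered 0 for DKO+NAC, 2 for HRas-KO+NAC and 0 for NRas-KO+NAC. In the change of the DKO effect by NAC 0 of 10 were called, beside 0.388% of all genes, and 1 of 10 had an unadjusted p under 0.05. The NAC comparisons within genotypes use separate arrays, but their groups share code starts, such as T453 in every NAC group. Arrays of different groups with the same code start deviated together more (mean r 0.15), so these comparisons cannot be taken as independent results. Comparisons that share Control or DKO arrays are not independent of each other either.

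**Figure D4:**
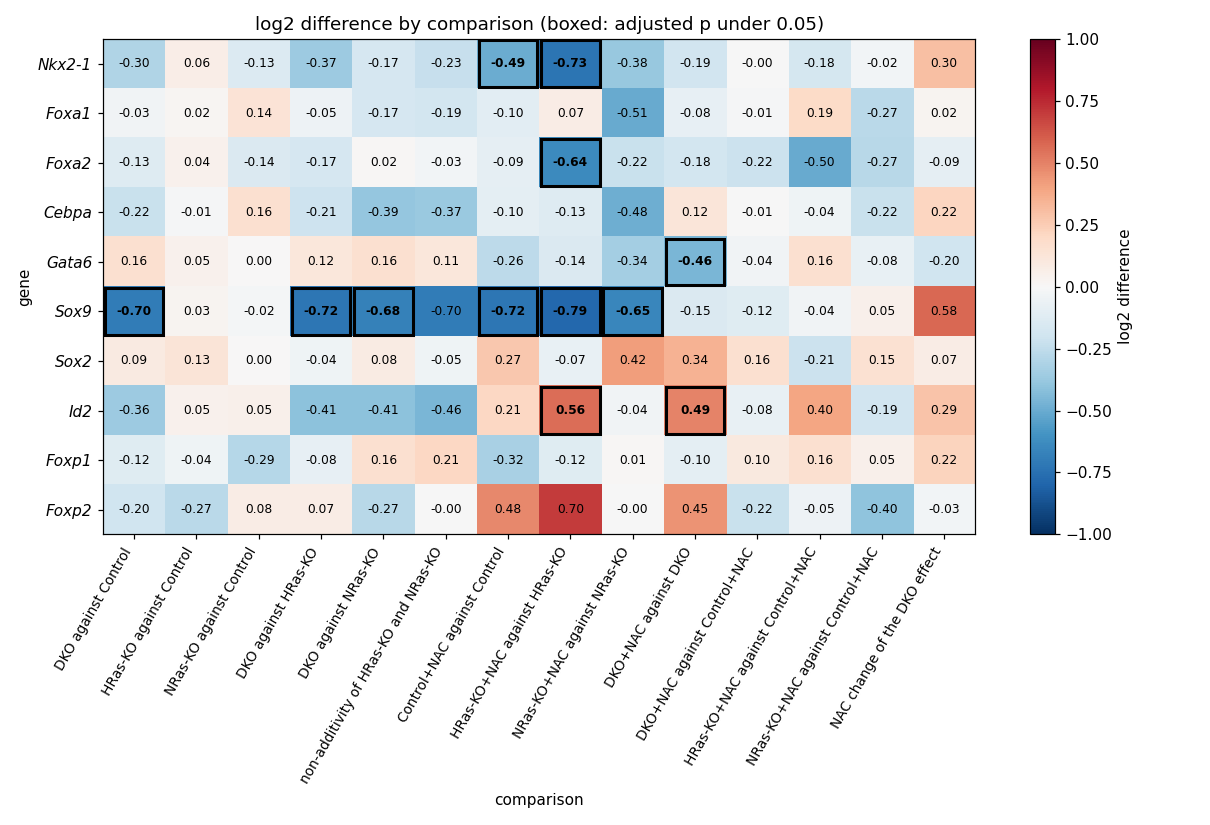
Log2 differences of the 10 genes (rows) in each comparison (columns), with a box around those called at an adjusted p under 0.05 in the limma fit over 22180 genes. The boxed Sox9 differences run from -0.79 to -0.65, while Foxa1, Cebpa, Sox2, Foxp1 and Foxp2 have no box.

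Of 34 other transcription factors of the lung epithelium, 32 were measured. Etv5, an ETS factor that fibroblast growth factor signals induce through ERK, was lower in DKO than in Control (-1.18, adjusted p = 8.7e-05), the 1 called of the 32, and the list median was -0.02 against 0.02 for all genes. Against HRas-KO, Etv5 fell by 1.63 and Hopx, a homeodomain-only protein of alveolar type 1 cells, was higher by 0.64. Against NRas-KO, 3 of 32 were lower: Etv5 at -1.33, Sox4 at -0.57 and Foxj1, the ciliated cell factor, at -0.45. With NAC, the Etv5 difference was -0.59 in Control, -1.22 in HRas-KO and -0.92 in NRas-KO lungs, all called. In Control lungs 5 of 32 were lower and 1 higher, in HRas-KO lungs 5 lower and 0 higher, in NRas-KO lungs 1 lower and in DKO lungs 3 lower and 1 higher. The Iroquois factor Irx2 was among the lower genes in Control (-0.44) and in HRas-KO (-0.73). For this list and the lists below, the shares of all genes called are as follows. With NAC, 5.68%, 5.1%, 3.56% and 6.46% were lower in Control, HRas-KO, NRas-KO and DKO lungs, and 7.86%, 6.73%, 2.86% and 5.74% higher. In DKO against Control, HRas-KO and NRas-KO, 1.35%, 2.32% and 1.75% were lower, and 2.48%, 3.3% and 3.2% higher.

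Close paralogs of the 10 genes numbered 25. In DKO against Control 1 of 25 was lower, Gata2 at -0.86 (adjusted p = 0.001), a GATA factor of blood and endothelium. Against HRas-KO, Gata2 was at -0.81 and Id1 at -0.59, and against NRas-KO Id1 was at -0.57. With NAC, Foxp4, the third lung FOXP factor, was lower in all 4 genotypes, from -1.16 in HRas-KO to -0.89 in DKO, while neither Foxp1 nor Foxp2 was called. The difference between these paralogs was not tested. Lower paralogs numbered 4 in Control lungs, 5 with HRas-KO, 1 with NRas-KO and 2 in DKO, with 3 higher in DKO, among them Id1 at 0.77 and Id4 at 0.40.

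Signals of budding and branching, the inputs to these factors, numbered 33 genes. In DKO against Control 1 of 33 was lower, the WNT feedback gene Axin2 at -0.70 (adjusted p = 0.012). Against HRas-KO and NRas-KO, the hedgehog receptor Ptch1 (-0.66 and -0.73) and its target Gli1 (-0.51 and -0.56) were lower too, and the Notch ligand Jag1 was higher by 0.51 in both. With NAC 10 of 33 were lower in Control lungs, 7 with HRas-KO, 10 with NRas-KO and 9 in DKO lungs, and 2, 2, 1 and 1 were higher. Over all genes 5.68%, 5.1%, 3.56% and 6.46% were lower in these genotypes. Notch1 was lower in all 4 (-0.65, -0.70, -0.78 and -0.82), and Tgfb1 in Control (-0.79), HRas-KO (-0.88) and DKO (-0.75). Bmpr1a, a BMP receptor, was higher in Control (0.66), HRas-KO (0.80) and NRas-KO (0.56).

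Lung genes that NKX2-1, FOXA and C/EBP factors regulate, 22 in all, held 2 lower genes in DKO against Control: the mucin Muc1 at -0.62 (adjusted p = 0.0014) and the lamellar body gene Lamp3 at -0.52 (adjusted p = 0.047). The surfactant genes Sftpb (-0.14, adjusted p = 0.59), Sftpc (0.07, adjusted p = 0.72) and Sftpa1 (-0.08, adjusted p = 0.87), added here after their values were seen, were not called. With NAC, 5 of 22 were lower in Control lungs, led by the club cell gene Scgb1a1 at -1.25 and Muc1 at -0.70, and 5 in HRas-KO lungs, with the same 2 genes at -1.23 and -0.68. In NRas-KO lungs 3 were lower, led by the fatty acid synthase Fasn at -1.10. In DKO lungs 5 were lower and 3 higher, with Lamp3 up by 0.86 and the protease Napsa at -0.53. The change of the DKO effect by NAC was called for Muc1 (0.73, adjusted p = 0.031).

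Within groups, the 10 genes did not move as 1 block. Over deviations from group means in 28 arrays, 25 of 45 pairs correlated positively, with a median r of 0.0536. Foxa1 and Cebpa had the highest r (0.737), and DKO replicates 1, 3 and 4 were far out on both genes. Sox2 and Foxp2 had the lowest (-0.642), followed by Nkx2-1 and Foxp2 (-0.591), and Nkx2-1 correlated with Sox2 (0.528) and Foxp1 (0.461). Sox9 correlated best with Foxa2 (0.414). These values share arrays and normalization and are given as a description.

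**Figure D5:**
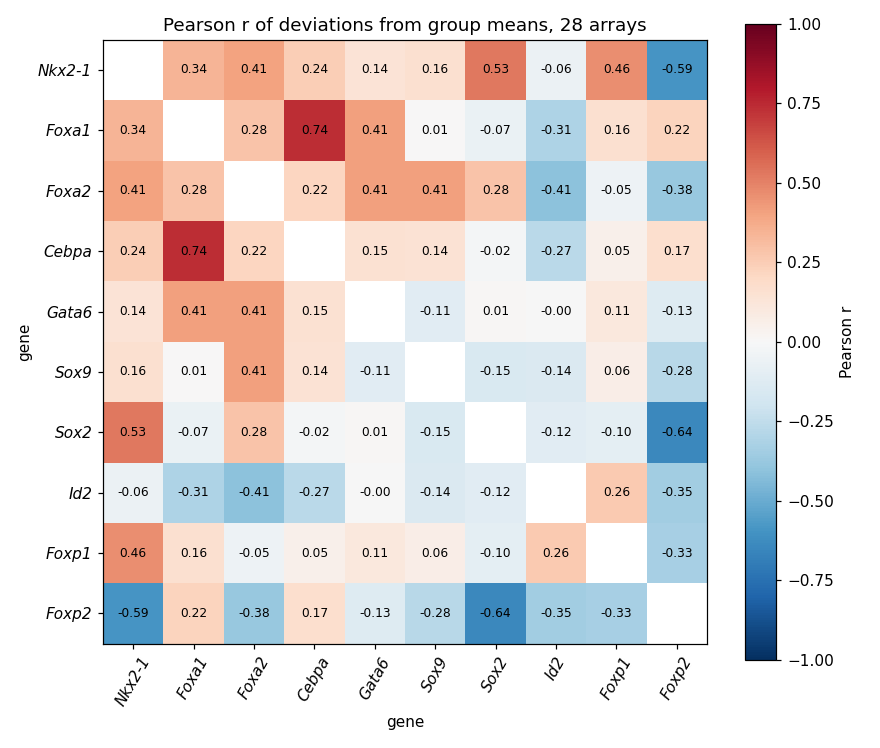
Pearson r between the 10 genes over deviations from group means in 28 arrays, from -1 (blue) to 1 (red), with each value printed in its cell. Foxa1 with Cebpa is the reddest cell at 0.74 and Sox2 with Foxp2 the bluest at -0.64.

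The genes most like each of the 10 were sought among 10437 genes at or above the median level, again by r of deviations from group means over 28 arrays. Cebpa was closest to the mucin Muc4 (0.899), the lung chemokine Cxcl15 (0.872) and Itga7 (0.865). Foxa1 was closest to Rusc2 (0.849) and Rhbdf2 (0.81), Foxa2 to St3gal1 (0.862), and Nkx2-1 to Ncoa3 (0.76). Sox9 was closest to Pskh1 (0.8), Sox2 to Exoc6 (0.811), Id2 to Timm23 (0.821) and Gata6 to Slc13a4 (0.701). Foxp1 was closest to the ubiquitin ligase Cblb (0.924), and Foxp2 to Pygb (0.915) and the chromatin remodeller Smarca2 (0.9). The best of many candidates is high by selection, and these are descriptions of 28 arrays.

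In the order of the 8 group means, most neighbours did not differ beyond their spread. For Sox9 the order was HRas-KO, Control and NRas-KO at the top, and the ranges parted only between NRas-KO (7.31) and NRas-KO+NAC (6.66), the next below. For Id2 the ranges parted only between HRas-KO+NAC (10.30) and Control+NAC (9.90). For Cebpa they parted only between NRas-KO (8.43) and Control (8.27), and for Foxa2 only between NRas-KO+NAC (7.54) and HRas-KO+NAC (7.31). For the other 6 genes 0 of 7 neighbouring pairs had separate ranges.

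Levels of Id2 moved within groups with markers of other tissues, and other members did too. Its r with the mean of 8 markers of stratified and basal epithelium was 0.626, with cartilage markers 0.521 and with endothelial markers -0.622. For Cebpa r was 0.561 with mesenchyme and -0.526 with skeletal muscle markers, and for Foxa1 it was 0.514 with epithelium and -0.532 with skeletal muscle. For Sox2 it was 0.657 with smooth muscle and -0.636 with cartilage markers. For Foxa2 it was 0.626 with erythroid, 0.538 with smooth muscle and 0.513 with leukocyte markers, and for Foxp1 -0.606 with endothelial, 0.596 with thymus and 0.525 with thyroid markers. These r values were picked as the larger of many and are large by selection. The thymus, thyroid and stratified epithelium lists had group means below the array medians. The part of these tissues in the group differences was not tested.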

How the data were processed

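RNA from whole lungs of 28 newborn mice was hybridised to 1-colour whole-transcript arrays, 1 per animal. The deposited values are log2 values that the authors made with RMA (background correction, quantile normalization and probe summary), for which the submitters' processing notes name affy. Its version, and whether all arrays were normalized jointly, are not given in the sources used here, and 41345 probe sets were tabulated. Through the platform annotation 23521 had 1 symbol, 1814 several and 16010 were unlisted. Where a gene had several, the brightest was kept, for 22180 genes.

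Samples were grouped by their source labels. A treatment note names fewer NAC samples than the labels do, and the titles of HRas-KO+NAC do not mention NAC. The labels give each array its own animal code but not how animals share litters, so p-values measure the spread between these animals. They take the arrays as independent, although arrays of different groups with the same code start deviated together more (mean r 0.15). Such sharing can make p-values too small. A model with 8 group means was fitted to all 28 arrays with limma 3.58.1 under R 4.3.3 (lmFit and eBayes, with 20 residual degrees of freedom and 5.95 prior ones), for 14 comparisons, and adjusted p-values are Benjamini-Hochberg values over all genes tested, called under 0.05. Intervals are 95% intervals of single genes, not adjusted. The fit was tested on simulated arrays drawn independently of each other, so that test does not cover animals that share a code start. The number of arrays limits the precision.

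The 10 members and all gene lists were chosen with earlier results of these data known. All members are named. From each list at most 4 called genes with the smallest p-values were named per comparison, and for likeness the 3 genes with the highest correlation at most, leaving out predicted genes and small RNAs. There were 13 alternatives chosen at the start and 3 added after seeing the data (a cartilage covariate, and leaving out DKO replicates 1 and 3 or DKO+NAC replicate 4). Promoter windows and gene names come from RefSeq tables. Gata6, Sox9 and Foxp2 had no promoter entry.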

Additional observations from a re-analysis of the deposited data

Results flagged for a closer look

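In 1 of the 30 member and group sets of 4 or 5 arrays, an array stood apart from the others, where chance sets apart about 1 in 20. It was Cebpa in Control+NAC replicate 4, at 8.22 against 8.15 to 8.16 in the other 3, a small gap beside the within-group SD of 0.23.

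For some effects, every array of a group lay above the mean of its comparison group in 1 setting and every array below it in the other. None of these differences was called over all genes in limma's interaction terms. The NRas-KO effect on Foxa1 was 0.136 untreated and -0.268 with NAC, a difference of 0.404 (adjusted p = 0.99). The NRas-KO effect on Cebpa was 0.163 and -0.223, a difference of 0.386 (adjusted p = 0.99). The DKO effect on Gata6 was 0.161 and -0.0363, a difference of 0.198 (adjusted p = 0.6).

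The NAC effect on Cebpa was 0.118 in DKO, and it was -0.0985 in Control, -0.131 in HRas-KO and -0.485 in NRas-KO lungs. The differences from DKO were -0.216 (adjusted p = 0.74), -0.249 (adjusted p = 0.68) and -0.602 (adjusted p = 0.39). The untreated DKO arrays of Cebpa, spread from 7.39 to 8.65, enter each of these 3.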

How the results depend on the processing

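No member difference that was called in the limma fit or in an alternative changed sign in the alternatives run. Counts of members called that were 0 stayed 0 in every alternative run. Of DKO against Control (1 called) none was left with only the compared arrays or without DKO replicates 1 and 3, which gave 0 in both (Sox9 at adjusted p = 0.059 and 0.05). Against HRas-KO (1) the muscle covariates gave 0, and against NRas-KO (1) leaving out DKO replicates 1 and 3 gave 0. With NAC in Control (2), all rows, median centring, the code start as a random block and the epithelium, muscle and cartilage covariates each gave 1, and only the compared arrays gave 3, with Foxp2 added. In HRas-KO (4) the muscle covariates gave 1 and the cartilage covariate 2, while all rows, quantile normalization, the random block and the epithelium covariate gave 3, each without Id2. In NRas-KO (1) the muscle covariates gave 3, with Foxa1 and Cebpa added. In DKO (2) only the compared arrays gave 1, the epithelium covariate 0, and leaving out DKO+NAC replicate 4, which has high Nras, 1. Leaving out 1 array at a time gave 0 to 1 in DKO against Control, 1 to 1 against HRas-KO, 0 to 2 against NRas-KO, and with NAC 0 to 1 in NRas-KO, 1 to 4 in HRas-KO, and 1 to 2 in both Control and DKO. The other comparisons gave 0 to 0. The cause of these shifts was not tested. A fixed block for the code start could not be fitted for the untreated DKO comparisons or for NAC within a genotype, whose groups share no code start.

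With the replicate number as a block every call of the members remained, for example Sox9 in DKO against Control at -0.75 (adjusted p = 0.026), and Foxp2 in HRas-KO with NAC was added (0.70, adjusted p = 0.034). For same-numbered arrays the mean r was 0.021 over 37 pairs, with 13 over 0.1. For pairs of other numbers it was -0.0075 over 108 pairs, with 29 over 0.1. These values do not decide whether the numbers pair animals, which the labels do not state. Arrays of the same code start deviated together more: over 28 pairs the mean r was 0.15, with 15 over 0.1, against a mean of -0.035 for pairs of other code starts. Over all genes, the counts of calls under the alternatives ranged from 122 to 1138 in DKO against Control (850), from 56 to 1739 against HRas-KO (1248) and from 312 to 1445 against NRas-KO (1098), and without 1 array they fell to 321, 549 and 500. With NAC they ranged from 2053 to 4105 in Control (3002), from 486 to 1825 in NRas-KO (1425), from 1275 to 3455 in HRas-KO (2625) and from 1471 to 4130 in DKO (2706), and without 1 array they fell to 1319, 711, 1374 and 2045. Departure from additivity (50) ranged from 4 to 108, and from 10 to 98 without 1 array. The change of the DKO effect by NAC (86) ranged from 0 to 191, and from 15 to 148 without 1 array.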
